A study of Homo sapiens with 2 samples.

Results

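The 10 genes described here encode long non-coding RNAs that have been studied in glioma, namely MALAT1, NEAT1, H19, MEG3, HOTAIR, HOTAIRM1, PVT1, CRNDE, MIAT and TUG1. They are listed by name, the rule uses no measured value, and all 10 are among the 41582 genes of the table. Of the 177816 transcripts listed, 46 belong to them, and 29 of these were above 0 in at least 1 library. The RNA came from the established glioblastoma line U87, of human origin and labelled as wild type, treated for 72 h with the curcumin analog CCA-1.1 or with DMSO, the vehicle. Both cultures were grown in RPMI with fetal bovine serum, and the concentration of CCA-1.1 used for sequencing is not given in the sources used here. There was 1 library per condition, so replicate error is unknown for every difference below and no test was run. RefSeq classes 9 of the 10 as long non-coding RNA genes and TUG1 as protein-coding, since some of its transcripts carry a predicted reading frame.

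Long non-coding RNAs are transcribed and spliced much like mRNA but are not mainly translated, and many act inside the nucleus. NEAT1 is the scaffold of paraspeckles, nuclear bodies that hold RNA-binding proteins, and its neighbour MALAT1 gathers at nuclear speckles, where splicing factors are stored. HOTAIR and HOTAIRM1 come from the HOX clusters, H19 and MEG3 are imprinted RNAs expressed from the maternal chromosome, and PVT1 lies beside the MYC oncogene. CRNDE, MIAT and TUG1 were named for differential expression in colorectal tumours, for association with myocardial infarction and for upregulation by taurine, respectively. High NEAT1, MALAT1, HOTAIR, PVT1 and CRNDE and low MEG3 are commonly described in glioma.

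Values are in TPM, a unit scaled for transcript length and for the size of each library, so levels can be compared between genes as far as their RNA was captured alike. A gene's level is the sum over its transcripts. TPM does not show read depth, so no interval for counting error is given. Differences are log2((CCA-1.1 TPM + 1) / (DMSO TPM + 1)), which keeps genes at low TPM near 0, and a difference above 1 or below -1 is called past 2-fold. The labelled cell type was checked against marker genes. VIM (3217 TPM with DMSO, 3106 TPM with CCA-1.1) and CD44 (607.4 and 472.6 TPM) were high, NES was at 7.53 and 7.62 TPM and OLIG2 at 5.64 and 7.03 TPM. SOX2 was low, at 1.87 TPM with DMSO and 1.45 TPM with CCA-1.1. The astrocyte marker GFAP was at 0.41 and 0.57 TPM and S100B was listed at 0 in both libraries, so the defining markers of mature astrocytes were close to absent. CDKN2A, a gene known to be deleted in U87, was listed at 0 in both libraries, PTPRC of immune cells was at 0.09 and 0.07 TPM and EPCAM of epithelium at 0.18 and 0.16 TPM. PECAM1 of endothelium was at 3.41 and 2.71 TPM and the neuronal genes RBFOX3 and SYP were at 1.83 and 47.4 TPM with DMSO and 2.45 and 43.2 TPM with CCA-1.1.

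NEAT1 had the highest TPM of the 10, at 546.5 TPM with DMSO and 793.5 TPM with CCA-1.1. MALAT1 was next, at 132.2 TPM and 192.8 TPM. HOTAIRM1 was at 60.8 TPM and 57.9 TPM, TUG1 at 35.1 TPM and 41.2 TPM, PVT1 at 16.6 TPM and 20.7 TPM, and CRNDE at 14.4 TPM and 14.9 TPM. These 6 genes were above 10 TPM in both libraries and the remaining ones were far lower. HOTAIR was at 2.61 TPM and 3.09 TPM, H19 at 0.19 TPM and 0.61 TPM, MIAT at 0.07 TPM and 0.09 TPM, and MEG3 at 0.01 TPM in each library, the smallest value above 0 that the table holds. The order of the 10 genes by level was the same in both libraries. Without replicates it cannot be said whether neighbouring levels differ beyond their spread. Among all long non-coding RNA genes of the table, NEAT1 ranked 4 by TPM with DMSO and 3 in CCA-1.1, and MALAT1 ranked 13 in both. The 10 genes together held 0.0809% of all TPM with DMSO and 0.112% with CCA-1.1, and NEAT1 alone made up 67.6% and 70.6% of their sum.

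**Figure D1:**
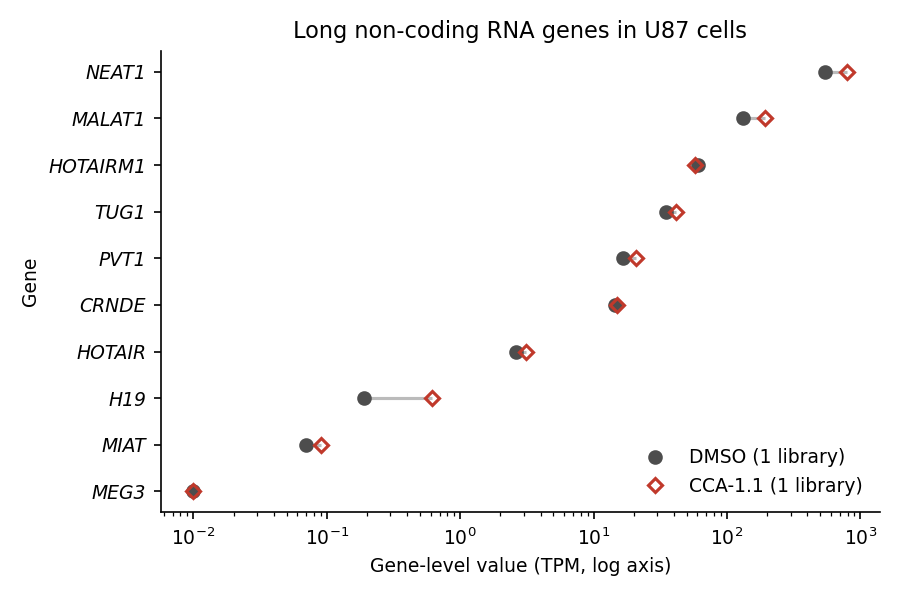
Gene-level TPM (log axis) of the 10 genes in the DMSO library (filled circles) and the CCA-1.1 library (open diamonds), 1 library per condition, with a grey line joining both values. NEAT1 and MALAT1 lie highest and their CCA-1.1 values are to the right of their DMSO values, while MEG3 lies at 0.01 TPM in both libraries.

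At gene level and with 1 TPM as the pseudocount, none of the 10 genes was past 2-fold, and 1 was, H19, with 0.1 TPM or with none. Over all genes of the table and with 1 TPM as the pseudocount, 1.53% were past 2-fold in either direction, so a count of 0 among 10 is near the background. With 0.1 TPM or none this share was not computed. Of the 10 genes, 8 had a higher TPM with CCA-1.1, 1 was lower (HOTAIRM1) and 1 was equal (MEG3). Their median difference was 0.20, against a median of 0 over all genes, most of which are at or near 0 TPM. Over the 6 genes averaging 10 TPM or more the median was 0.26, and 5 of the 6 were higher in CCA-1.1. For comparison, 41.0% of all genes were higher in CCA-1.1, and 51.9% of the 8589 genes averaging 10 TPM or more. Among the 340 long non-coding RNA genes at that abundance the share was 65.6% and the median difference 0.12. NEAT1 and MALAT1 are among these 340, and TUG1 is not. Whether the members' shift is that of their class was not tested.

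With the pseudocount of 1 TPM, MALAT1 and NEAT1 had the largest differences of the 10, 0.54 for each. In TPM, NEAT1 was higher by 247.0 and MALAT1 by 60.6 in the CCA-1.1 library, and the ratios of CCA-1.1 to DMSO were 1.45 and 1.46. In RNA from a whole culture, more cells with such an RNA and more of it per cell cannot be told apart. The TPM of NEAT1 was thus 4.13 times that of MALAT1 in the DMSO library and 4.12 times in the CCA-1.1 library. The authors enriched mRNA, and RNA with and without a poly(A) tail may be captured unequally, so these ratios do not measure abundance in the cell. Summed without this pair, the other 8 genes were at 129.8 TPM with DMSO and 138.4 TPM with CCA-1.1. H19 had a difference of 0.44 and a ratio of 3.21 and stayed below 1 TPM in both libraries, and with a pseudocount of 0.1 TPM or none its difference, 1.29 or 1.68, was the largest of the 10. PVT1 had a difference of 0.30, TUG1 of 0.23, HOTAIR of 0.18, CRNDE of 0.04, MIAT of 0.03 and HOTAIRM1 of -0.07.

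The same differences were set beside those of other genes of comparable abundance. The 7906 protein-coding genes averaging 10 TPM or more had a median difference of 0.0039, with -0.29 and 0.31 as 5th and 95th percentiles. NEAT1 and MALAT1 lay above that range, with 50 and 48 protein-coding genes (0.632% and 0.607%) above them. PVT1, at 0.30, lay just inside it, and TUG1, CRNDE and HOTAIRM1 were well within it. Long non-coding RNA genes as a class lay higher. The 340 such genes averaging 10 TPM or more had a median difference of 0.12 and 5th and 95th percentiles of -0.30 and 0.67, and 223 of them (65.6%) were higher in CCA-1.1, against 51.2% of the protein-coding genes. Within this class NEAT1 and MALAT1 lay inside the range between both percentiles, with 43 and 42 genes (12.6% and 12.4%) above them. PVT1 had 92 of the 340 genes above it, and TUG1 is counted among the protein-coding genes by its RefSeq class. Of these 340 genes, 0.882% were past 2-fold. The 340 genes summed to 13623 TPM with DMSO and 16570 TPM with CCA-1.1, of which NEAT1 and MALAT1 are part.

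**Figure D2:**
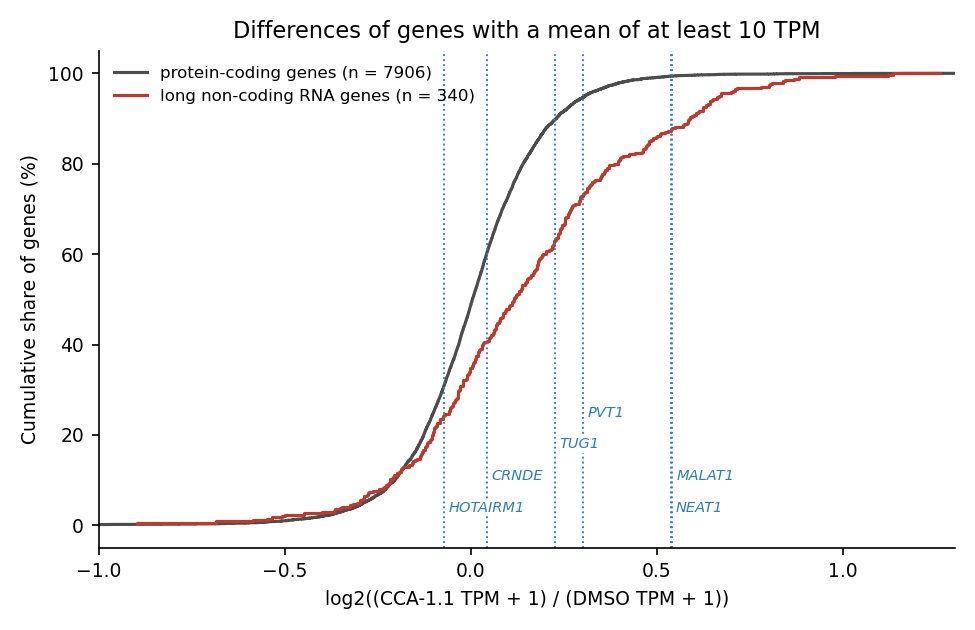
Cumulative share (%) of the 7906 protein-coding genes (grey line) and the 340 long non-coding RNA genes (red line) averaging 10 TPM or more, by difference between the CCA-1.1 and DMSO libraries on the log2(TPM + 1) scale. Dotted lines mark the 6 members at that abundance, and the red line lies to the right of the grey line over most of the range, with NEAT1 and MALAT1 both at 0.54.

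NEAT1 (Entrez 283131) lies at chr11:65422798-65445540 of GRCh38.p14 and MALAT1 (Entrez 378938) at chr11:65497738-65506516, with 52.2 kb between them. The genes around this pair did not share their direction. FRMD8, which starts upstream of NEAT1 and regulates the shedding enzyme ADAM17, was at 14.7 TPM with DMSO and 12.8 TPM with CCA-1.1, a log2 difference of -0.18. SLC25A45, a mitochondrial carrier gene within the span of FRMD8, was at 7.01 and 6.70 TPM. The pseudogene FAUP4, which lies between NEAT1 and MALAT1, was at 54.6 and 50.1 TPM, a log2 difference of -0.12. Beyond MALAT1, LTBP3, which encodes a binding protein of latent TGF-beta, was at 104.9 TPM with DMSO and 68.9 TPM with CCA-1.1, a log2 difference of -0.60. Each of the neighbours named here was lower with CCA-1.1 than with DMSO, and none of them was past 2-fold. TALAM1, the antisense transcript of MALAT1, was at 1.11 TPM and 0.51 TPM. Whether the library kit kept strand is not given in the sources used here, and without strand the reads of TALAM1 and MALAT1 cannot be told apart.

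NEAT1 makes a short form with a poly(A) tail and a long form, needed for paraspeckles, that spans the whole 22743 bases of the locus and ends in a triple helix in place of a tail. The short form NR_028272.1 was at 523.0 TPM with DMSO and 752.4 TPM with CCA-1.1, a log2 difference of 0.52. The long form NR_131012.1 was at 23.5 TPM and 41.0 TPM, a log2 difference of 0.78. Both forms were higher in CCA-1.1, the long one by a ratio of 1.74 and the short one by 1.44. The long form made up 4.30% of NEAT1 TPM with DMSO and 5.17% in CCA-1.1. The short form lies wholly within the long one, so the reads of that stretch were divided between both by estimation.

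MALAT1 also ends in a triple helix without a poly(A) tail, left when a tRNA-like piece called mascRNA is cut away. Its transcript NR_144567.1 held most of the gene, at 112.2 TPM with DMSO and 171.9 TPM with CCA-1.1, a log2 difference of 0.61. NR_144568.1 was at 17.1 and 17.5 TPM, and NR_002819.4 at 2.89 and 3.36 TPM. The higher TPM of MALAT1 in the CCA-1.1 library thus lay almost wholly in 1 of its 3 transcripts. The share of the gene held by NR_144567.1 was 84.9% with DMSO and 89.2% with CCA-1.1. Reads are divided among transcripts of a gene by estimation, so the split between these 3 is uncertain. MASCRNA itself was listed at 0 in both libraries.

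The authors enriched mRNA, and RNAs without a poly(A) tail depend on how that step went. Such RNAs differed between the libraries in both directions. RN7SL1 and RN7SL2, the RNA of the signal recognition particle, were at 65.3 and 80.1 TPM with DMSO and 99.8 and 171.1 TPM with CCA-1.1. RN7SK was at 35.8 and 33.4 TPM, RMRP at 8.96 and 7.73 TPM, and RPPH1, the RNA of the enzyme RNase P, at 2.0 and 1.71 TPM. The 69 clustered histone genes, whose mRNA has no tail, summed to 1660 TPM with DMSO and 1656 TPM with CCA-1.1, while 31 of the 47 averaging 1 TPM or more were higher with CCA-1.1, with a median difference of 0.20. RNU4ATAC, a spliceosomal RNA, was at 12.5 and 5.92 TPM, and SCARNA2 at 0.40 and 0.71 TPM. The 9 rRNA genes averaging 10 TPM or more summed to 12217 TPM with DMSO and 7430 TPM with CCA-1.1. The part of this step in the differences of NEAT1 and MALAT1 was not tested.

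MALAT1 has 2 start sites in the RefSeq promoter table of GRCh38.p14, which holds 6 of the 10 genes, and both promoters are printed because MALAT1 is, with NEAT1, 1 of the pair with the largest differences among the members above 1 TPM. Each runs 5′ to 3′ from 250 bases before the start site to 50 after it on the strand of the gene, and capitals mark motifs found by letters on either strand.
MALAT1 first start, chr11:65497488-65497787, plus strand: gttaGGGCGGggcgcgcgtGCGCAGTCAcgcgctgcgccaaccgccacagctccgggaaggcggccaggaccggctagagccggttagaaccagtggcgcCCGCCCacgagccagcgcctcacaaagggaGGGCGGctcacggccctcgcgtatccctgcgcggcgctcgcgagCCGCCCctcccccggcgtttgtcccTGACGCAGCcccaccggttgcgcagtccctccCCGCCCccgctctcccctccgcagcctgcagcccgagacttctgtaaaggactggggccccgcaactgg
MALAT1 second start, chr11:65498795-65499094, plus strand: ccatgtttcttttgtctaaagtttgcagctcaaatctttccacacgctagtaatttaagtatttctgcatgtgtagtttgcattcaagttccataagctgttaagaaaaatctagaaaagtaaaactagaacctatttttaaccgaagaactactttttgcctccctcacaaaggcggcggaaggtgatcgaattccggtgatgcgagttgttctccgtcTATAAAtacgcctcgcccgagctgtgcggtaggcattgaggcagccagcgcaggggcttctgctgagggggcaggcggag
The motifs searched were the cAMP response element (CRE, TGACGTCA), the CCAAT box (CCAAT), the GC box (GGGCGG), the TATA box (TATAAA), the E box (CACGTG) and the core of the antioxidant response element (TGACNNNGC). The first promoter holds 5 GC boxes and 2 antioxidant response element cores and no TATA box. The second holds 1 TATA box, 30 bases before the start site, and none of the other motifs. Among all 35116 promoters of this length, 45.0% hold a GC box, 11.5% a TATA box and 13.3% an antioxidant response element core. These are matches by letters and do not show binding.

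**Figure D3:**
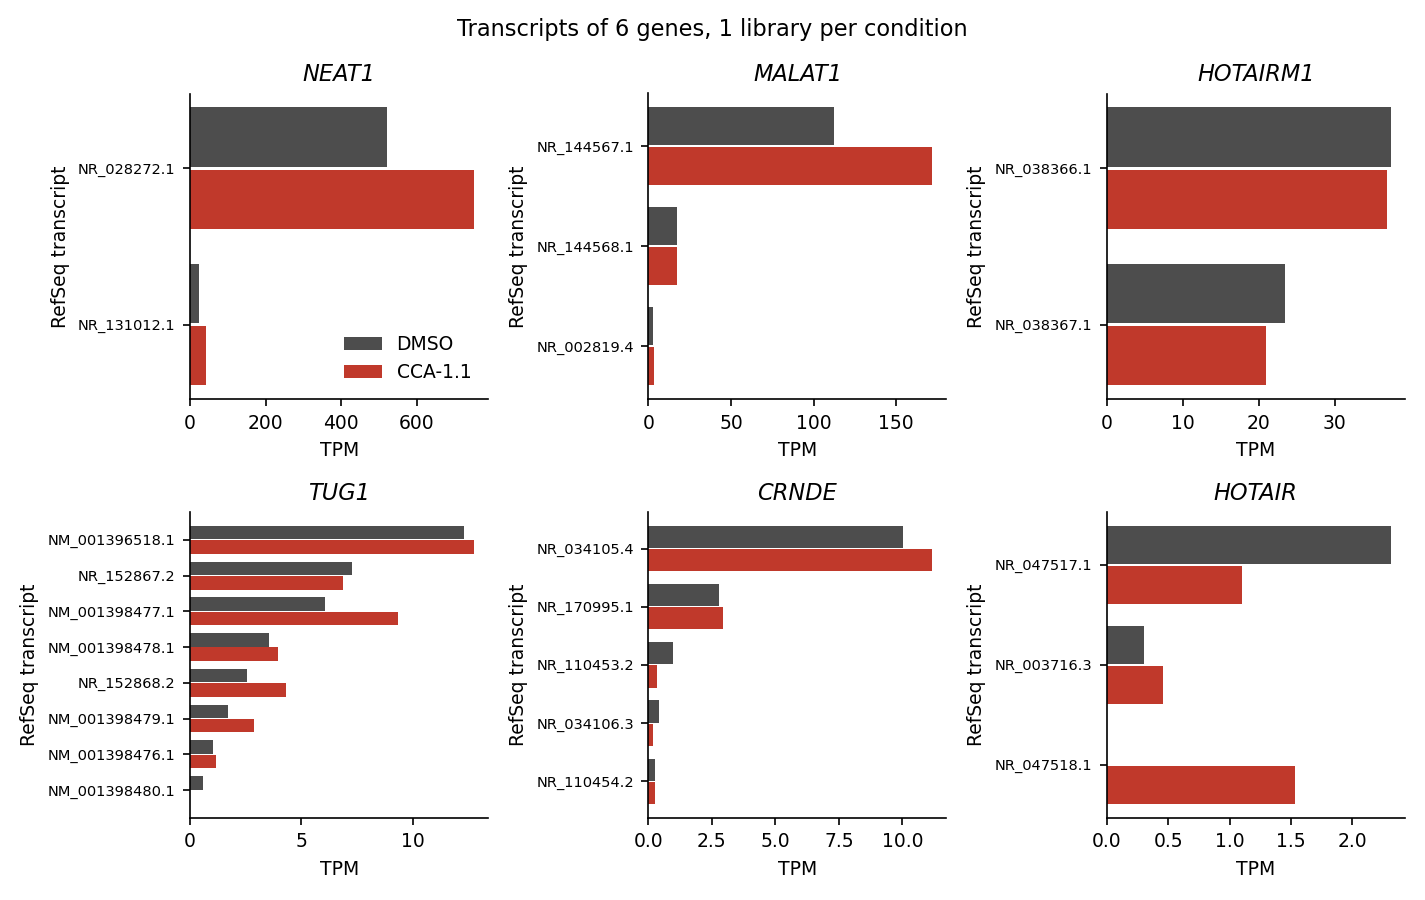
TPM of every RefSeq transcript of NEAT1, MALAT1, HOTAIRM1, TUG1, CRNDE and HOTAIR in the DMSO library (grey bars) and the CCA-1.1 library (red bars), 1 library per condition, with axes from 0 and a separate scale for each gene. The longer red bars of NEAT1 and MALAT1 stand in NR_028272.1 and NR_144567.1, and the HOTAIR transcript NR_047518.1 has a bar in CCA-1.1 only.

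HOTAIRM1 (Entrez 100506311, chr7:27096094-27100258), the RNA at the early end of the HOXA cluster, was the member with a lower value in CCA-1.1. Its transcript NR_038366.1 was at 37.4 and 36.9 TPM and NR_038367.1 at 23.4 and 21.0 TPM, so each was slightly lower. Of the nearby HOXA genes, HOXA2 was at 0.26 and 0.19 TPM and HOXA3 at 1.77 and 1.44 TPM.

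HOTAIR (Entrez 100124700, chr12:53962312-53974954), which lies in the HOXC cluster and is known for its reported binding of the PRC2 and LSD1 chromatin complexes, had the single member transcript past 2-fold, 1 of the 46. With a minimum mean of 1 TPM this count was 0, and with a pseudocount of 0.1 TPM it was 5. Over all transcripts of the table and with 1 TPM as the pseudocount, 2.23% were past 2-fold, which for 46 transcripts is about the 1 seen. The share over all transcripts with 0.1 TPM was not computed, so the count of 5 has no background beside it. NR_047518.1 was not above 0 with DMSO but reached 1.53 TPM with CCA-1.1, a log2 difference of 1.34. NR_047517.1 was at 2.31 TPM with DMSO and 1.1 TPM with CCA-1.1, a log2 difference of -0.66, and NR_003716.3 was at 0.30 and 0.46 TPM. The sum of NR_047517.1 and NR_047518.1 was 2.31 TPM with DMSO and 2.63 TPM with CCA-1.1, a log2 difference of 0.13, so both transcripts together were nearly level while their shares differed. Reads are divided among transcripts of a gene by estimation, so at these low levels the difference in shares is uncertain. Of the HOXC genes around HOTAIR, HOXC10 was at 8.42 and 9.82 TPM, while HOXC9, HOXC11 and HOXC12 were below 1 TPM in both libraries.

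TUG1 (Entrez 55000, chr22:30969265-30979395) had 8 transcripts above 0, of which 6 were higher and 2 lower in CCA-1.1. Its most abundant transcript NM_001396518.1 was at 12.3 and 12.8 TPM. NM_001398477.1 was at 6.08 TPM with DMSO and 9.33 TPM with CCA-1.1, a log2 difference of 0.55, NR_152868.2 at 2.57 and 4.32 TPM, a log2 difference of 0.58, and NM_001398479.1 at 1.71 and 2.86 TPM, a log2 difference of 0.51. In the estimated split of reads, these 3 transcripts carried most of the higher TUG1 value. NR_152867.2 was at 7.27 and 6.85 TPM, NM_001398478.1 at 3.54 and 3.94 TPM, NM_001398476.1 at 1.04 and 1.17 TPM, and NM_001398480.1 at 0.59 TPM with DMSO and listed at 0 in CCA-1.1. The 6 transcripts with NM_ identifiers, those with an annotated reading frame, summed to 25.3 and 30.1 TPM and the 2 without one to 9.84 and 11.2 TPM, so both kinds were higher by similar ratios. MORC2, a chromatin regulator gene transcribed away from TUG1, starts 490 bases from it and was at 12.9 and 14 TPM. The TUG1 promoter is printed because TUG1 and MORC2 share the stretch between them.
TUG1, chr22:30969015-30969314, plus strand: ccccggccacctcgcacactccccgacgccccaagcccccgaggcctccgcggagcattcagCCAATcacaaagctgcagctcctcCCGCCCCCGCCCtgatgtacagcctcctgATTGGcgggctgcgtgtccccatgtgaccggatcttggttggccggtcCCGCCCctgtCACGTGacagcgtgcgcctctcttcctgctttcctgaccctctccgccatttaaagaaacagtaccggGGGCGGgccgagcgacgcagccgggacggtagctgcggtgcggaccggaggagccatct
It holds 2 CCAAT boxes, 4 GC boxes and 1 E box, marked by capitals as above. A CCAAT box is found in 34.6% of all promoters of the table and an E box in 7.26%.

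PVT1 (Entrez 5820, chromosome 8) is represented by 1 transcript, NR_003367.3, at 16.6 TPM with DMSO and 20.7 TPM with CCA-1.1. MYC, 51.6 kb from it, encodes a transcription factor that drives cell growth and was at 21.1 TPM with DMSO and 31.6 TPM with CCA-1.1, a log2 difference of 0.57. The long non-coding RNA CASC11 beside MYC was at 0.24 and 0.54 TPM. MIR1204, a microRNA gene hosted by PVT1, was at 53.8 TPM with DMSO and 21.1 TPM with CCA-1.1, a log2 difference of -1.31 and past 2-fold in the direction opposite to its host. The library was made from mRNA, the gene is short, and short genes reach a high TPM from few reads. MIR1205, MIR1206, MIR1207 and MIR1208 of the same host were listed at 0 in both libraries, as were MIR675 of H19, MIR770 of MEG3 and MIR612 of NEAT1.

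CRNDE (Entrez 643911, chr16:54918863-54928886) was nearly level, with its main transcript NR_034105.4 at 10.0 and 11.2 TPM and NR_170995.1 at 2.76 and 2.94 TPM. The other 3 transcripts summed to 1.63 TPM with DMSO and 0.76 TPM with CCA-1.1. Among these, NR_110453.2 was at 0.96 and 0.32 TPM. IRX5, a homeobox gene 1.98 kb from CRNDE, was at 15.0 and 17.1 TPM, and IRX3 at 13.4 and 14.2 TPM, while IRX6 was below 1 TPM.

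The imprinted pair H19 and MEG3, together with MIAT, was at or near the floor of the table. H19 (Entrez 283120, chr11:1995176-2001266) is a maternally expressed RNA whose reciprocal partner IGF2 was at 0.08 and 0.06 TPM. Its transcript NR_131224.1 was at 0.16 and 0.27 TPM, NR_131223.1 at 0.03 and 0.33 TPM, and NR_002196.2 was listed at 0 in DMSO and at 0.01 TPM with CCA-1.1. All 3 were higher in CCA-1.1, at values where few reads may stand behind each. MEG3 (Entrez 55384, chr14:100826108-100861026), a growth-restraining RNA often silenced in glioma, had 15 transcripts listed, of which only NR_046473.1 was above 0, at 0.01 TPM in both libraries. Its imprinted neighbours were as low, with DLK1 at 0.01 and 0.06 TPM, MEG8 at 0.01 TPM and 0, and RTL1 and MEG9 listed at 0 in both. MIAT (Entrez 440823, chr22:26646429-26676478), an RNA of neurons and retina, had 1 of 4 transcripts above 0, NR_033321.2, at 0.07 and 0.09 TPM.

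The MEG3 promoter is printed because the gene was close to absent here while its start region holds the CRE for which it is known.
MEG3, chr14:100825858-100826157, plus strand: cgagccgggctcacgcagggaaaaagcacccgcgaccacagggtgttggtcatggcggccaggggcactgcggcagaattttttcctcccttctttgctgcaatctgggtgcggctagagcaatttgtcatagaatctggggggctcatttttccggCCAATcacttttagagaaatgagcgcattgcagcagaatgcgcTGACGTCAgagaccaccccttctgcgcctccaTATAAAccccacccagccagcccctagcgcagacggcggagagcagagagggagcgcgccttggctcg
It holds 1 CCAAT box, 1 CRE, 50 bases before the start site, and 1 TATA box. The table lists 3 overlapping MEG3 promoters, and each holds these same motifs. A CRE is found in 1.85% of all promoters of the table. The letters do not show whether the region was methylated or bound in these cells.

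Genes that work with these RNAs were taken from lists and counted where they reached 1 TPM in at least 1 library. Among 15 paraspeckle proteins, 11 were higher and 4 lower in CCA-1.1, with a median difference of 0.11 and none past 2-fold. Of the 15485 genes averaging 1 TPM or more, 56.1% were higher and 3.56% past 2-fold, and their median difference was 0.03. NONO, a core protein needed for paraspeckles, was at 171.8 and 182.1 TPM, SFPQ at 54.1 and 62.0 TPM, and PSPC1 at 10.1 and 12.1 TPM, a log2 difference of 0.25. RBM14, also needed for paraspeckles, was at 10.8 and 9.07 TPM, a log2 difference of -0.23. The differences of all 15 lay between -0.23 and 0.26, below those of both NEAT1 forms.

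Among the RNase P subunits, ELAC2 and METTL16, which process or bind the 3′ ends of MALAT1 and NEAT1, 12 of 13 genes reached 1 TPM, of which 6 were higher and 6 lower, with a median of 0.01. ELAC2, the RNase Z that cuts mascRNA free, was at 19.6 and 20.6 TPM, and METTL16, which binds the MALAT1 triple helix, at 18.9 TPM in both libraries. Over all genes averaging 1 TPM or more, 56.1% were higher. Of 11 genes of the PRC2 and LSD1 complexes, 10 were higher and 1 lower, with a median of 0.07. Their differences lay between -0.06 and 0.28. SUZ12, a core PRC2 subunit, was highest among them at 0.28 (23.7 and 29.1 TPM), the methyltransferase EZH2 was at 7.48 and 8.65 TPM, and the demethylase KDM1A at 39.5 and 39.6 TPM.

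Of 13 further RNA-binding partners and related regulators, 10 reached 1 TPM, with 7 higher and 3 lower and a median of 0.08. The splicing factor SRSF1, which MALAT1 binds, was at 43.7 and 52.9 TPM, a log2 difference of 0.27, and the speckle protein SON at 51.7 and 42.0 TPM, a log2 difference of -0.29. QKI and SF1, which are known to bind MIAT, were at 49.1 and 124.8 TPM with DMSO and 50.6 and 125.1 TPM with CCA-1.1. Of 12 imprinted genes, 6 reached 1 TPM, with 4 higher and 2 lower and a median of 0.04. GRB10, PEG10 and SNRPN were expressed, at 31.9, 30.6 and 58.8 TPM with DMSO and 33.4, 30.3 and 49.2 TPM with CCA-1.1, so the low values of H19, IGF2, DLK1 and MEG3 were not shared by every imprinted gene. Of the 30 locus neighbours, 14 reached 1 TPM, with 8 higher and 6 lower, a median of 0.07 and none past 2-fold.

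Of 20 other long non-coding RNA genes, 19 were in the table and 13 reached 1 TPM, with 7 higher and 6 lower and a median of 0.02. The 2299 long non-coding RNA genes averaging 1 TPM or more had a median of 0.12. TALAM1, 1 of the 13, is classed by RefSeq as antisense RNA. NORAD, a cytoplasmic RNA that binds PUMILIO proteins, had the highest TPM of all long non-coding RNA genes in the DMSO library and was at 832.7 and 790.9 TPM. GAS5, a growth arrest RNA and host of small nucleolar RNAs, was at 294.3 TPM with DMSO and 505.6 TPM with CCA-1.1, a log2 difference of 0.78, the largest of this list. CYTOR was at 99.0 and 109.1 TPM, MIR22HG at 114.8 and 107.7 TPM, OIP5-AS1 at 58.0 and 59.4 TPM, and LINC-PINT at 73.9 and 75.8 TPM. GAS5 lay above NEAT1 and MALAT1, and the 12 remaining genes of this list at 1 TPM or more lay below them, between -0.48 for TALAM1 and 0.15 for LUCAT1. The list was written with results of these data known. Of the 340 long non-coding RNA genes, 43 and 42 had higher differences than NEAT1 and MALAT1.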

How the data were processed

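RNA from U87 cells treated for 72 h with DMSO or CCA-1.1 was analysed, 1 library per condition. The authors enriched mRNA, ran FastQC 0.11.9 and MultiQC 1.1, and estimated transcript levels by Kallisto pseudo-alignment to GRCh38.p14. The deposited values are TPM per transcript, rounded by the authors to 2 decimals. Read depth does not follow from TPM, and bias correction and strand settings are not given in the sources used here.

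Transcripts were matched to symbols with a RefSeq table of GRCh38.p14, 169411 by versioned identifier and 169966 of 177816 once versions were ignored (for the members, 34 and 46 of 46). TPM was summed per gene. No test was run, because there is 1 library per condition and TPM are not counts. The members and gene lists were chosen with earlier results of these data known, and the list of RNAs without a poly(A) tail was written after the values were seen. All members, their transcripts at 1 TPM or more or highest in their gene, and list genes at 1 TPM or more or past 2-fold could be named; transcripts, neighbours and markers below 1 TPM that are given were chosen after their values were seen. Pseudocounts, a minimum mean, curated transcripts and median-ratio scaling were tried as alternatives. Some neighbouring genes are not reported here. The calculation was tested on simulated data at levels well above 1 TPM, so that test does not cover values below 1 TPM. Python 3.11.15, numpy 2.4.6, pandas 2.3.3 and matplotlib 3.10.9 were used.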

Additional observations from a re-analysis of the deposited data

How the results depend on the processing

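No paired analysis was possible because DMSO and CCA-1.1 have 1 library each, and no library could be left out. At gene level, no member passed 2-fold with 1 TPM as the pseudocount, a minimum mean of 1 TPM (7 members left), curated transcripts only or median-ratio scaling, whose factor was 1.003. With a pseudocount of 0.1 TPM or with none, 1 member passed, H19, at 1.29 and 1.68, from 0.19 and 0.61 TPM. Shares past 2-fold over all genes and over all transcripts were computed with a pseudocount of 1 TPM only. The median over members was 0.20, and it ranged from 0.20 to 0.28 over the alternatives. NEAT1 kept differences between 0.53 and 0.54 and MALAT1 was at 0.54 in each. Member transcripts past 2-fold numbered 1 with 1 TPM, 5 with 0.1 TPM and 0 with a minimum mean of 1 TPM, where NR_047518.1 of HOTAIR is left out for its mean. The 5 were NR_047518.1 of HOTAIR and NR_131223.1 of H19, higher, and NR_047517.1 of HOTAIR, NR_110453.2 of CRNDE and NM_001398480.1 of TUG1, lower. All members' transcripts are curated ones, so that alternative changed nothing. Without read counts, the precision of values under 1 TPM is unknown.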
